A study of Mus musculus with 9 samples.

Results

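Replication-dependent histone genes were followed on 9 arrays of mouse acute myeloid leukaemia cells in which Brg1 had been knocked down by 3 different hairpins. A probe set was a member where the platform annotation gave it 1 gene symbol made of H1f, H2ac, H2bc, H3c or H4c and a digit, the current names of the Hist1h and Hist2h genes. The rule found 30 genes of 19937 with a probe set of their own, each with 1 probe set, among 34760 probe sets of which 21640 had exactly 1 symbol. They stood for 8 genes of the linker histone H1, 4 of H2A, 9 of H2B, 3 of H3 and 6 of H4. RefSeq (GRCm38.p6) places 23 of the genes on chromosome 13 and 4 on chromosome 3. By name the rule also takes in 6 genes with another pattern of use: H1f6, H1f7, H2ac1 and H2bc1 of the male germ line, H1f8 of the oocyte, and H1f10, a linker histone made outside S phase. Another 22 probe sets carried several gene symbols with histones among them and are given as a group without gene names.

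The cells were RN2, a line carrying MLL-AF9 and NrasG12D, so that every group shared these drivers. All groups also carried a hairpin in the TRMPV vector and had received doxycycline at 1 ug/ml for 96 h to switch it on. The control hairpin, Rluc, is directed at Renilla luciferase and was measured on 3 arrays. The hairpins Brg1sh_3232, Brg1sh_3364 and Brg1sh_4935 were measured on 2 arrays each. The cell line label of the control arrays has an added term, TtTMPV, that the knockdown arrays lack, so this difference in name cannot be told apart from the comparison. All values come from 1 cell line, and no label says that replicate arrays were separate cultures. The p-values therefore measure only the spread between these arrays, which may be technical. Age and strain were not given in the labels used here.

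Core histones H2A, H2B, H3 and H4 form the nucleosome, around which DNA is wound, and H1 binds the DNA between nucleosomes. Cells make most of their histones in S phase from clustered genes without introns, whose mRNAs end in a stem-loop and not in a poly(A) tail. NPAT gathers these genes into histone locus bodies, SLBP binds the stem-loop, and the mRNAs are degraded when DNA synthesis stops. Brg1, encoded by Smarca4, is an ATPase of the SWI/SNF complexes, which move nucleosomes. How the cDNA was primed, which decides whether RNA without a tail is copied, is not given in the sources used here.

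Upstream sequences of the 4 members with the lowest adjusted p over the 3 hairpins together are shown, because these genes carry the falls described below. They are the 250 bases before the RefSeq start (GRCm38.p6), 5′ to 3′, with capitals for the motifs searched on either strand. These were CCAAT, known as the CCAAT box, the TATA box as TATAAA, the octamer ATTTGCAT known from promoters of H2B genes, and the H1 box as AAACACA.
H1f1, chr13:23763418-23763667, + strand: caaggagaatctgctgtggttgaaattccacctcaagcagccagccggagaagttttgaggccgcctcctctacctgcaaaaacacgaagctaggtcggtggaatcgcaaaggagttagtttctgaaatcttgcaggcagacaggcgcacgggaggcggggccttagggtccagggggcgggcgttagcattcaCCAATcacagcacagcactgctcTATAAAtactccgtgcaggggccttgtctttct
H1f2, chr13:23738557-23738806, + strand: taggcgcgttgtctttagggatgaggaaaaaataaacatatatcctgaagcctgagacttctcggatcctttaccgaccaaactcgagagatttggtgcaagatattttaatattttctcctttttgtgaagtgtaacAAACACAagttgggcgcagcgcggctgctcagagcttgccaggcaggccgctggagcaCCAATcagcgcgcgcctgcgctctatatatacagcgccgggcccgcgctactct
H2bc14, chr13:21721794-21722043, + strand: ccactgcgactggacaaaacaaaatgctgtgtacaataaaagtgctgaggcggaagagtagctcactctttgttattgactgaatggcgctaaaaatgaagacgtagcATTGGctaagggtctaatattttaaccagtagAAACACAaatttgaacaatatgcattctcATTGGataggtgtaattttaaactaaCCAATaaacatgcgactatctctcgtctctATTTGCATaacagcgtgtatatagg
H2bc18, chr3:96269450-96269699, + strand: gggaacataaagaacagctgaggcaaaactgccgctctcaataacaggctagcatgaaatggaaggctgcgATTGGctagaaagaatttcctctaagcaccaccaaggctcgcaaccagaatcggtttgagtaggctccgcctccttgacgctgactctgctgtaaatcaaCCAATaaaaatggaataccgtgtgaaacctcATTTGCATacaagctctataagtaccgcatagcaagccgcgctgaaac
H1f1 has CCAAT 56 and TATAAA 33 bases before its start, and H1f2 has CCAAT at 54 and the H1 box at 112. In H2bc14 the octamer begins 25 bases before the start, and in H2bc18 it begins at 48. RefSeq held a window of 300 bases, 250 before and 50 after the start, for 26 of the 30 members. In these windows CCAAT was found in 21 of 26 (80.8%), against 37.4% of all 32851 windows. TATAAA was found in 15 of 26 (57.7%), against 13.6%. The octamer was in 5 of 7 H2B and 3 of 4 H2A windows and in no other member, which makes 30.8% of members against 1.74% of all windows. The H1 box was in 8 of 26 (30.8% against 7.18%), 4 of them H1 genes. None of these 4 strings contains another, and the windows of 2 H2A and 2 H2B neighbours overlap. These matches describe letters in the windows and not binding.

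Smarca4 itself was lower in every knockdown array, at 10.67 and 10.90 with Brg1sh_3232, 10.78 and 10.81 with Brg1sh_3364, and 10.70 and 10.76 with Brg1sh_4935, against 11.79, 11.77 and 11.79 with Rluc (log2 expression). It fell to 49.5% of Rluc (log2 change -1.01, SE 0.05, limma adjusted p 3.41e-06). The hairpins reached between -1.05 and -0.99, and an F test over them did not pass (adjusted p 0.805). Array medians lay between 7.39 and 7.49. All 9 markers of leukaemic myeloid progenitors were above the median probe set (9.71 to 13.58), with 4 that fell, among them Mpo (-0.87) and Cebpa (-0.61), and 3 that rose. Markers of erythroid, T and B cells lay between 5.02 and 7.06 with none called. The 4 fibroblast markers lay between 7.83 and 9.88, just above the median probe set for 3 of them, and the highest, Pdgfrb, rose by 0.39. All 6 macrophage markers rose with the knockdown, as did 2 of 5 neutrophil markers, while 1 neutrophil marker fell; their part in the histone results was not tested.

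1 control array stood apart for the histone probe sets. Rluc replicate 1 was the highest of the 3 controls for 25 of 30 members, whereas this was so for 34.0% of all probe sets with 1 symbol. It lay above the mean of the other 2 controls for 28 of 30 members, with a median difference of 0.27, against -0.01 over all probe sets and 0.01 over 22 genes of S phase. Counts and medians below are therefore given also without this array.

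**Figure D1:**
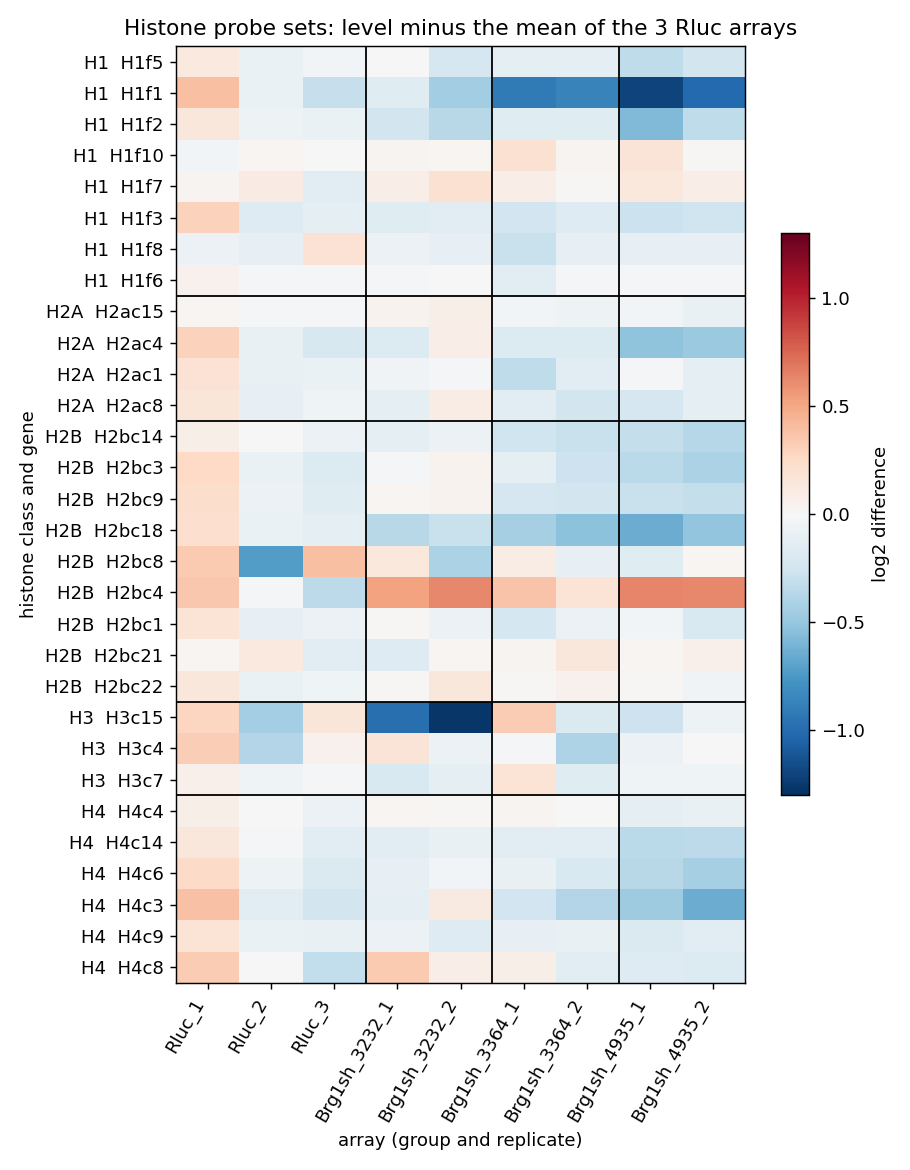
Level of each of the 30 histone probe sets (rows, by class and then by mean signal) on each of the 9 arrays (columns), as log2 difference from the mean of the 3 Rluc arrays, red for higher and blue for lower. Rluc replicate 1 is red for most members, the Brg1sh_4935 arrays are blue for most of the brighter members, H2bc4 is red under the knockdown, and H3c15 is dark blue only in the Brg1sh_3232 arrays.

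With the 3 hairpins weighted equally against Rluc, 6 of 30 members passed the test: H1f1, H1f2, H2bc14, H2bc18 and H4c14 fell, and H2bc4 rose. Called here means a limma p below 0.05, two-sided and adjusted over all 21640 probe sets by Benjamini-Hochberg. This compares with 27.4% of all probe sets (14.7% lower and 12.7% higher), so the share of members called was below the background. Log2 changes were below 0 for 24 of 30 members, against 50.8% of all probe sets, with a median of -0.13 against -0.00. Without Rluc replicate 1 the fit called 5 members (4 lower, 1 higher; background 25.2%), and the median was -0.04. With the hairpin as a random block, which lets the 2 arrays of a hairpin vary together, H2bc18 alone kept its call (adjusted p 0.033; background 12.1%). The other 5 did not pass: H2bc14 (0.0985), H1f1 (0.104), H1f2 (0.142), H2bc4 (0.147) and H4c14 (0.262).

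The calls lay among the brighter members. Of the 30 members, 19 had a mean at or above the median probe set (7.81), and the 6 called ones were among them. Of the 11 dimmer members, limma called 0 in the mean of the hairpins and 0 with any hairpin, and 0 were below an unadjusted p of 0.05. The mean changes of these dim members ran from -0.21 to 0.10. The 6 germ line and S phase independent genes also had 0 calls, with 1 unadjusted p below 0.05 (H2ac1 with Brg1sh_3364). Over the hairpins 27.4% of all probe sets were called, and the share among dim ones alone was not computed. H1f6, H1f7, H1f8 and H1f10 are dim members too, so these 2 results overlap. Whether low signal or pattern of use goes with the lack of calls was not tested. Fitted among the brighter 10820 probe sets alone, 7 of 19 members were called, 6 of them lower, beside 53.6% of those probe sets (29.5% lower). The share called in either direction (36.8%) was thus below that background, and the share that fell (31.6%) was close to it. For a bulk sample, fewer cells in S phase and less histone mRNA per cell cannot be told apart.

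The hairpins differed in how many members they called. Brg1sh_4935 called 11 of 30 (36.7%), 10 lower and 1 higher, beside a background of 21.3% (12.0% lower, 9.32% higher). Brg1sh_3364 called 3, all lower, beside 25.3% (12.1% lower, 13.2% higher). Brg1sh_3232 called 2, 1 in each direction, beside 19.9% (10.8% lower, 9.09% higher). The median change was -0.16 with Brg1sh_4935, -0.15 with Brg1sh_3364 and -0.04 with Brg1sh_3232, where all probe sets had 0.00 or -0.01. Among the brighter probe sets alone, Brg1sh_4935 called 12 of 19 members beside 43.6%, and 11 of them were lower beside 25.7%. There Brg1sh_3232 called 4 of 19 beside 42.3%, and Brg1sh_3364 called 3 of 19 beside 48.8%. These comparisons share the Rluc arrays.

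The Brg1sh_4935 count depended on which arrays were kept. It was 2 without Brg1sh_4935 replicate 1 (background 12.5%) and 4 without replicate 2 (12.7%). It was 6 without either Brg1sh_3364 array (19.3%) and 7 without Rluc replicate 2 (18.8%). In each of these fits fewer of all probe sets were called as well, beside 21.3% with every array. Without Rluc replicate 1 the histone count was 11, beside a background of 20.4%. With Brg1sh_3232 the count was 0 without its replicate 2, and 1 without its replicate 1, either Brg1sh_3364 array or Rluc replicate 2. There too fewer of all probe sets were called, with 17.5% without Rluc replicate 2 beside 19.9% with every array. With Brg1sh_3364 the count was 2 without its replicate 1 (background 16.6%) or its replicate 2 (16.3%). It was 5 without Rluc replicate 3 (background 22.2%) and 4 without Rluc replicate 1 (background 23.5%). With Brg1sh_3232 it stayed at 2 without Rluc replicate 1 (background 20.0%). Without Rluc replicate 1 the medians were -0.07, -0.05 and 0.04 for Brg1sh_4935, Brg1sh_3364 and Brg1sh_3232, so that of Brg1sh_3232 changed sign.

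**Figure D2:**
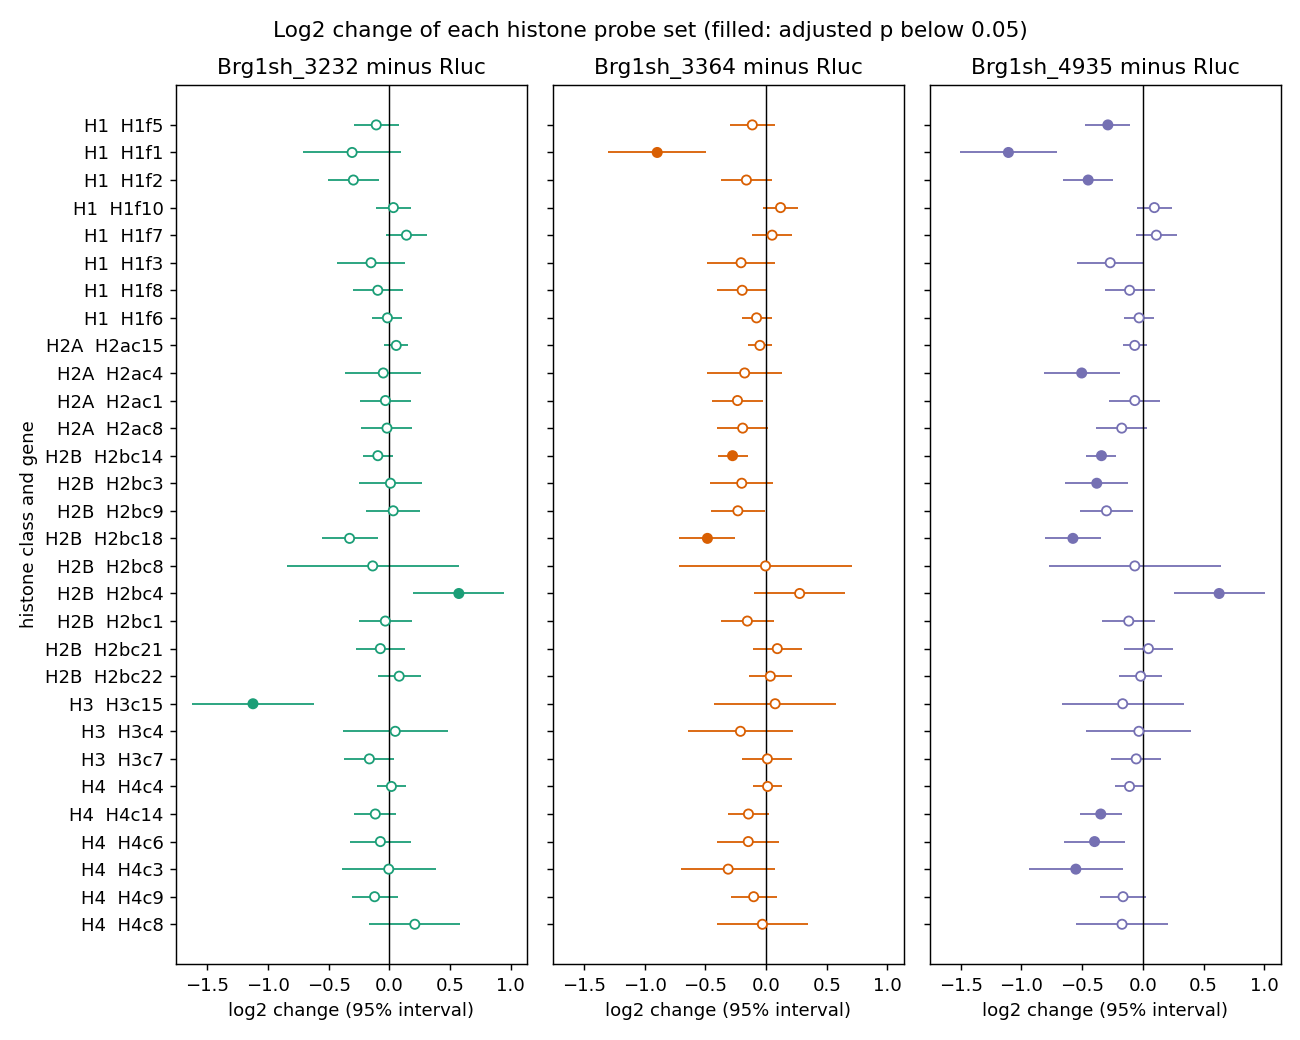
Log2 change against Rluc (x axis) of the 30 histone probe sets (y axis) for each hairpin, with 95% intervals of the limma fit; filled points passed the adjusted p of 0.05. Filled points are 2 for Brg1sh_3232, 3 for Brg1sh_3364 and 11 for Brg1sh_4935, and the 10 falls of Brg1sh_4935 lie in H1, H2A, H2B and H4.

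Linker histones held the largest fall over the 3 hairpins together. H1f1 read 12.47, 12.00 and 11.78 with Rluc, 11.92 and 11.63 with Brg1sh_3232, 11.16 and 11.21 with Brg1sh_3364, and 10.88 and 11.07 with Brg1sh_4935 (log2 expression). The Brg1sh_3364 and Brg1sh_4935 arrays were all below the controls, while the Brg1sh_3232 arrays overlapped them. H1f1 fell by 0.77 over the hairpins, to 58.7% of Rluc (SE 0.14, limma adjusted p 0.00284), and to 46.5% with Brg1sh_4935 (-1.11, SE 0.18, adjusted p 0.0023). The change was -0.90 with Brg1sh_3364 (SE 0.18, adjusted p 0.00582; 0.0537 without its replicate 1), and with Brg1sh_3232 -0.31 did not pass (adjusted p 0.3). Without Rluc replicate 1 the mean change was -0.58 (adjusted p 0.00316).

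H1f2, a linker histone gene that also yields polyadenylated mRNA, read 11.62, 11.41 and 11.38 with Rluc, 11.23 and 11.11 with Brg1sh_3232, 11.31 and 11.30 with Brg1sh_3364, and 10.90 and 11.14 with Brg1sh_4935. All 6 knockdown arrays were below all 3 controls. It fell by 0.30 over the hairpins (SE 0.07, limma adjusted p 0.0119; 0.0439 without Rluc replicate 1). With Brg1sh_4935 the change was -0.45 (adjusted p 0.00772; 0.0848 without that hairpin's replicate 1), and with Brg1sh_3232 it was -0.30 (adjusted p 0.0535; 0.046 without either Brg1sh_4935 array). The smallest change, -0.16 with Brg1sh_3364, did not pass (adjusted p 0.265). H1f5, the brightest linker histone probe set, read 12.71, 12.50 and 12.55 with Rluc and 12.25 and 12.34 with Brg1sh_4935. It fell with that hairpin alone by the test (-0.29, adjusted p 0.0346), and 6 of the 9 arrays, left out singly, ended the call (0.0589 to 0.222). H1f3 was dim and did not pass (-0.21, adjusted p 0.154), and the germ line genes H1f6, H1f7 and H1f8 had changes of -0.04, 0.10 and -0.13, none called. H1f10 stood at 0.08 (adjusted p 0.288).

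H2A genes gave 1 call. H2ac4 read 11.20, 10.80 and 10.70 with Rluc, 10.72 and 10.98 with Brg1sh_3232, 10.72 on both Brg1sh_3364 arrays, and 10.38 and 10.41 with Brg1sh_4935. Only the Brg1sh_4935 arrays lay below all controls, and there it fell by 0.50 (SE 0.14, limma adjusted p 0.0298). That call was lost when either Brg1sh_4935 array (0.135 and 0.162) or either Brg1sh_3364 array (0.0586) was left out. The brightest H2A probe set, H2ac15, read 13.46 to 13.50 with Rluc and 13.38 to 13.55 over the knockdown arrays, and its change of -0.02 did not pass (adjusted p 0.759). Its level is near the top of the scale, where the brightest probe sets on the arrays reach 14.45 to 14.57; saturation was not tested.

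H2B genes moved in both directions. H2bc18 read 11.20, 10.89 and 10.85 with Rluc, 10.62 and 10.69 with Brg1sh_3232, 10.55 and 10.45 with Brg1sh_3364, and 10.34 and 10.47 with Brg1sh_4935. All 6 knockdown arrays were below all 3 controls, which of the 30 members held for H1f2 and H2bc18, beside 12.0% of all probe sets. It fell by 0.46, to 72.6% of Rluc (SE 0.08, limma adjusted p 0.00223), and this call held under each of the 21 alternatives run. By hairpin it fell with Brg1sh_3364 (-0.48, adjusted p 0.00796; 0.0761 without its replicate 2) and Brg1sh_4935 (-0.58, adjusted p 0.00375; 0.051 without its replicate 1). With Brg1sh_3232 the change was -0.33 (adjusted p 0.0538; 0.0371 without Rluc replicate 3).

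H2bc14 is a bright H2B probe set, at 13.15, 13.08 and 12.99 with Rluc, 12.96 and 13.00 with Brg1sh_3232, 12.82 and 12.78 with Brg1sh_3364, and 12.76 and 12.71 with Brg1sh_4935. The Brg1sh_3232 arrays reached into the control range and the other 4 did not. It fell by 0.24 (SE 0.04, limma adjusted p 0.00279), with -0.28 for Brg1sh_3364 (adjusted p 0.00569) and -0.34 for Brg1sh_4935 (adjusted p 0.00226). H2bc3 fell with Brg1sh_4935 (-0.38, adjusted p 0.0453), but 7 of the 9 arrays left out singly ended that call (0.0625 to 0.22). H2bc9, at 12.31, 12.01 and 11.93 with Rluc and 11.79 and 11.77 with Brg1sh_4935, was just outside the threshold there (-0.30, adjusted p 0.0614), and inside it without Rluc replicate 1 (0.0343) or 3 (0.0231).

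H2bc4 was the one member that rose. It read 9.74, 9.37 and 9.05 with Rluc, 9.91 and 10.01 with Brg1sh_3232, 9.76 and 9.57 with Brg1sh_3364, and 10.02 and 10.01 with Brg1sh_4935. Its controls spread widely (SD 0.35, n = 3), and the Brg1sh_3364 arrays overlapped them. The rise was 0.49, to 141% of Rluc (SE 0.13, limma adjusted p 0.0187), with 0.57 for Brg1sh_3232 (adjusted p 0.0397), 0.63 for Brg1sh_4935 (adjusted p 0.0248) and 0.28 for Brg1sh_3364 (adjusted p 0.288). Without Rluc replicate 1, the control that was high for most histones, it was 0.67 (adjusted p 0.00134) and passed with each hairpin. The mean call was lost by leaving out any of 6 other arrays, at adjusted p of 0.05 to 0.0652: Brg1sh_3232 replicate 2, Brg1sh_3364 replicate 1, either Brg1sh_4935 array, or Rluc replicate 2 or 3. The call with Brg1sh_3232 was lost without any 1 array but Rluc replicate 1 (0.0589 to 0.199), and that with Brg1sh_4935 without either of its arrays or Rluc replicate 2 (0.0662 to 0.138). H2bc8 was the most variable control (10.59, 9.52 and 10.64), and its change of -0.07 did not pass (adjusted p 0.891).

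**Figure D3:**
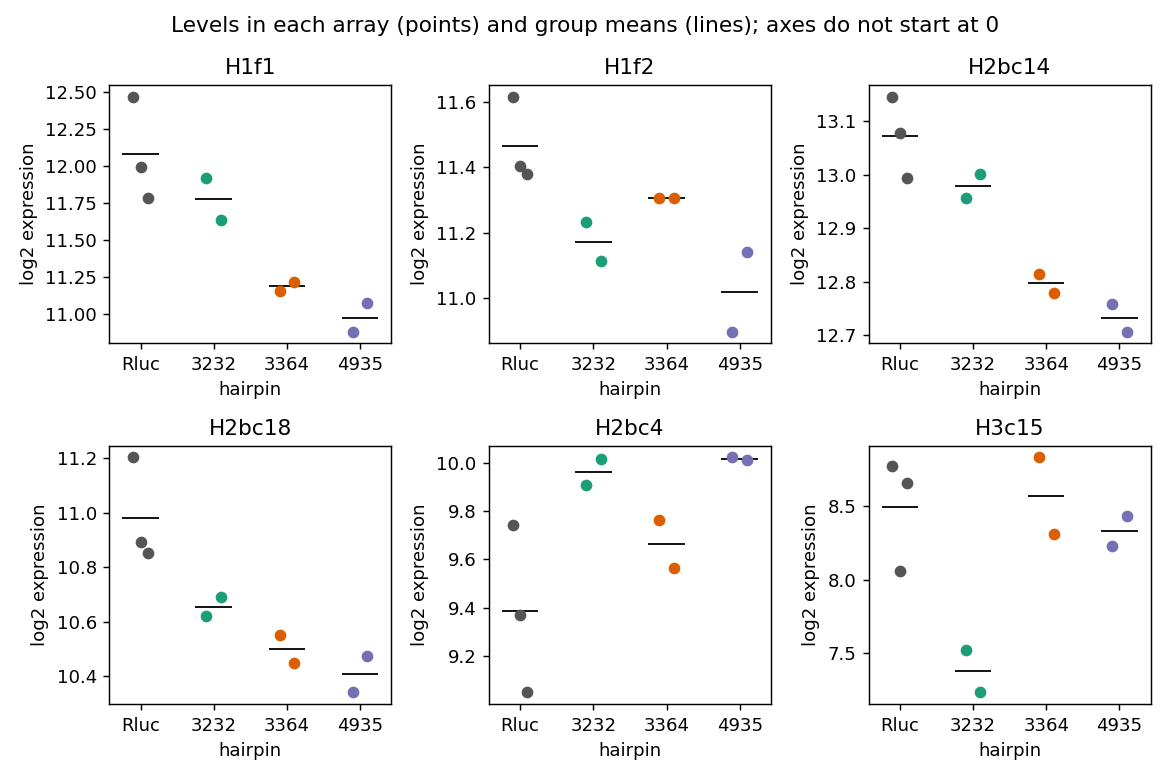
Log2 expression (y axis, not from 0) of 6 histone genes on each array (points) with group means (lines), for Rluc and the 3 hairpins. H1f1, H2bc14 and H2bc18 have their lowest group mean with Brg1sh_4935, H2bc4 has its highest there, and H3c15 is low in the 2 Brg1sh_3232 arrays.

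H3 genes gave 1 call, with Brg1sh_3232. H3c15 read 8.77, 8.06 and 8.66 with Rluc, 7.52 and 7.23 with Brg1sh_3232, 8.83 and 8.31 with Brg1sh_3364, and 8.23 and 8.43 with Brg1sh_4935. The Brg1sh_3232 arrays were below all the others, and the remaining groups overlapped. With Brg1sh_3232 it fell by 1.12 (SE 0.22, limma adjusted p 0.00762; 0.0796 without that hairpin's replicate 2), while Brg1sh_3364 gave 0.08 and Brg1sh_4935 -0.17. Over the hairpins together the change was -0.40 (adjusted p 0.126; 0.015 without Rluc replicate 2). H3c4 and H3c7 were dim and had mean changes of -0.06 and -0.07, neither called.

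H4 genes, which encode the same core histone many times over, were lower mainly with Brg1sh_4935. H4c14 read 13.15, 12.99 and 12.86 with Rluc, 12.86 and 12.91 with Brg1sh_3232, 12.86 and 12.85 with Brg1sh_3364, and 12.65 and 12.66 with Brg1sh_4935. The Brg1sh_4935 arrays alone were clear of the controls. It fell by 0.20 over the hairpins (SE 0.06, limma adjusted p 0.032), but leaving out any array except Rluc replicate 3 ended this call (0.0581 to 0.0887). With Brg1sh_4935 it fell by 0.35 (adjusted p 0.011; 0.0811 and 0.072 without that hairpin's replicate 1 or 2).

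H4c6 and H4c3 fell with Brg1sh_4935 by 0.40 (limma adjusted p 0.034) and 0.55 (adjusted p 0.0494). H4c3 read 11.13, 10.60 and 10.51 with Rluc against 10.28 and 10.10. For both genes 7 arrays, every array but Rluc replicates 1 and 3, ended the call when left out (0.0558 to 0.19 and 0.0595 to 0.272). H4c4, the brightest member, read 14.12, 14.05 and 13.97 with Rluc and 13.93 and 13.95 with Brg1sh_4935, a change of -0.11 that did not pass (adjusted p 0.216). H4c9 (-0.13) and H4c8 (0.00) were not called over the hairpins.

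Members just inside and just outside the threshold had close values. Over the hairpins these were H4c14 (adjusted p 0.032) and H1f5 (0.0826), with Brg1sh_3232 H2bc4 (0.0397) and H1f2 (0.0535), and with Brg1sh_4935 H4c3 (0.0494) and H2bc9 (0.0614). With Brg1sh_3364 the gap was wider, between H2bc18 (0.00796) and H2ac1 (0.107). By group ranges, the 2 Brg1sh_4935 arrays were below all 3 controls for 16 members (background 22.9%), the Brg1sh_3364 arrays for 10 (24.0%) and the Brg1sh_3232 arrays for 4 (20.8%). They were above all controls for 1, 1 and 2 members (19.6%, 22.4% and 19.7%).

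**Figure D4:**
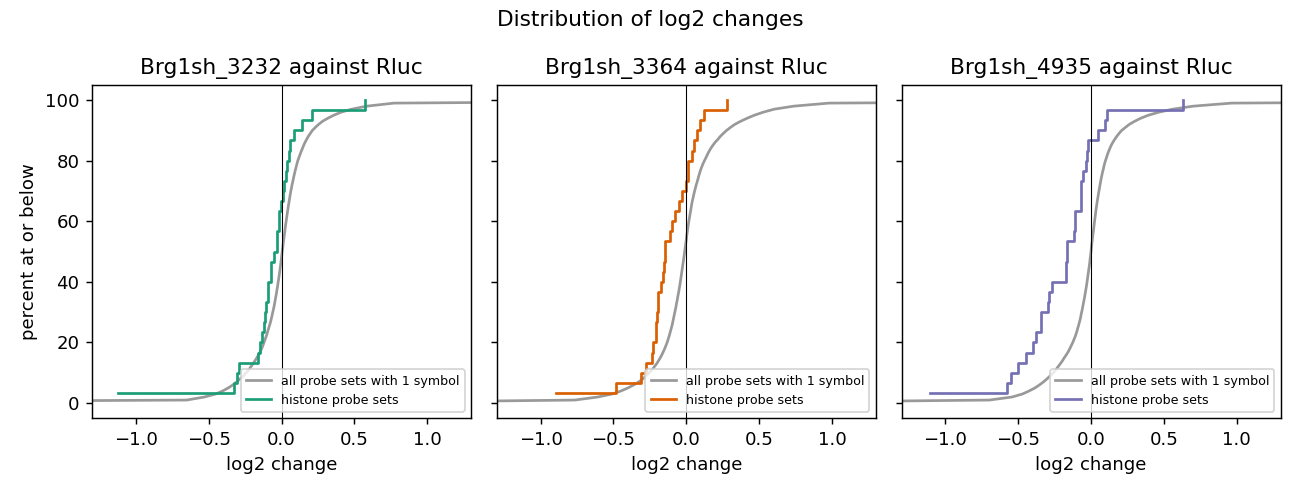
Cumulative share (y axis, percent) of the 30 histone probe sets (coloured steps) and of all 21640 probe sets with 1 symbol (grey) at or below each log2 change against Rluc (x axis), for each hairpin. The coloured steps lie left of the grey curve over most of the range for Brg1sh_3364 and Brg1sh_4935, where the medians are -0.15 and -0.16, and close to it for Brg1sh_3232, where the median is -0.04.

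Set directly against each other, the hairpins gave few calls among the histones. Between Brg1sh_3364 and Brg1sh_3232, H3c15 alone was called, higher by 1.20 with Brg1sh_3364 (95% interval 0.65 to 1.75, limma adjusted p 0.0181; background 9.35%). That call was lost without either Brg1sh_3232 array (0.0599 and 0.106) or Brg1sh_3364 replicate 1 (0.132). Between Brg1sh_4935 and Brg1sh_3232, limma called 0 of 30 (background 0.767%). There 10 of 30 members were below an unadjusted p of 0.05, beside 3118 of 21640 probe sets. Between Brg1sh_4935 and Brg1sh_3364 limma called 0 (background 7.07%). Here 2 of 30 were below an unadjusted p of 0.05, beside 4407 of 21640 probe sets. The F test over the 3 hairpins called H3c15 (adjusted p 0.0297; background 9.99%), followed by H2bc14 (0.0624), H1f1 (0.0632) and H2bc9 (0.144).

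H1f1 differed by -0.80 between Brg1sh_4935 and Brg1sh_3232 (95% interval -1.24 to -0.36, limma adjusted p 0.106), a span that leaves a large difference possible. When Rluc replicate 1, which enters this contrast only through the shared spread, was left out, that contrast called 4 members beside a background of 1.68%. They were H1f1 (adjusted p 0.0252), H2bc9 (-0.33, 0.0278), H2bc3 (-0.39, 0.0387) and H4c3 (-0.55, 0.046), all lower with Brg1sh_4935. Without the same array, Brg1sh_3364 against Brg1sh_3232 called 3 members (10.0%, beside 10.8% of all probe sets): H3c15, and H1f1 (0.018) and H2bc9 (0.0151), lower with Brg1sh_3364.

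Histone genes known to give polyadenylated mRNA as well were read separately. Of 5 such genes H1f2 and H2aw fell, H2bc4 rose, and H4f16 and H2bc21 did not pass. H2aw (formerly Hist3h2a), whose current name keeps it outside the rule, read 12.30, 12.26 and 12.17 with Rluc and between 11.88 and 12.14 under the knockdown. It fell by 0.22 (SE 0.05, limma adjusted p 0.0154; 0.0632 and 0.0588 without Rluc replicate 1 or 2; 0.134 with the hairpin as a random block). H4f16 (formerly Hist4h4) had -0.20 (adjusted p 0.111), H2bc21 0.02 (adjusted p 0.875), and H2bu2, also outside the rule by name, -0.05 (adjusted p 0.431).

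Probe sets that the annotation assigned to several histone genes numbered 22. In a fit of all 34760 probe sets, 1 of them fell over the hairpins (4.55%, beside 17.9% of all called and 9.01% lower) with a median of -0.13, and 19 of 22 were below 0. With Brg1sh_4935, 4 fell beside a background of 12.7% called and 6.58% lower, the median was -0.20 and 22 of 22 were below 0. With Brg1sh_3232 and Brg1sh_3364 limma called 0, beside 10.5% and 16.1% called. Below an unadjusted p of 0.05 were 3 and 2 of the 22, beside 8285 and 9975 of all 34760 probe sets. Histone genes of a class are nearly the same in sequence, so a probe set with 1 symbol can also bind RNA of its relatives, and values of single members are uncertain to that extent.

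**Figure D5:**
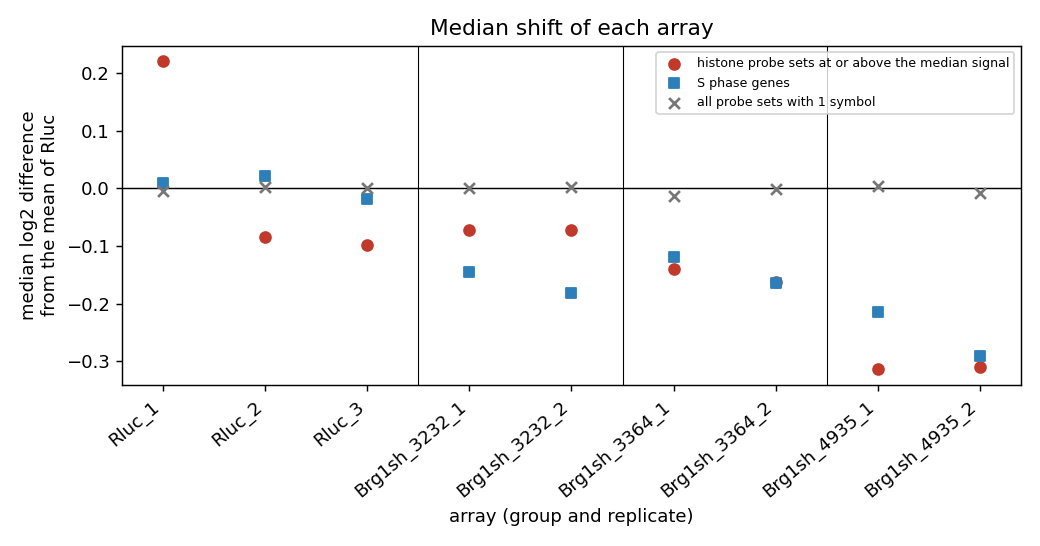
Median log2 difference of each array from the mean of the 3 Rluc arrays (y axis) for the 19 brighter histone probe sets (circles), 22 S phase genes (squares) and all probe sets with 1 symbol (crosses). Rluc replicate 1 is at 0.22 for the histones and 0.01 for the S phase genes, and both Brg1sh_4935 arrays are at -0.31 for the histones.

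The brighter members shifted together by array. Their median difference from the Rluc mean was 0.22, -0.08 and -0.10 on the Rluc arrays. It was -0.07 on both Brg1sh_3232 arrays, -0.14 and -0.16 with Brg1sh_3364, and -0.31 on both Brg1sh_4935 arrays. The Brg1sh_3232 arrays thus lay level with Rluc replicates 2 and 3, and the Brg1sh_4935 arrays lay lowest. For the S phase genes the 3 Rluc arrays stayed within -0.02 and 0.02, and the hairpin arrays ran from -0.12 to -0.29.

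Most genes of S phase entry and DNA synthesis fell. Of 22 measured, 15 fell and 1 rose over the hairpins, with a median of -0.19 beside -0.00 over all probe sets. That is 72.7% called and 68.2% lower, beside 27.4% and 14.7% of all probe sets. In the fit of the brighter 10820 probe sets alone these shares were 53.6% and 29.5%. Of the S phase genes 10 fell when each hairpin was a random block. Thymidylate synthase, Tyms, which makes a DNA precursor, fell by 0.37 (SE 0.03, limma adjusted p 5.62e-05). It read 11.76, 11.79 and 11.76 with Rluc and between 11.25 and 11.49 under the knockdown, with no overlap. The replication licensing genes Cdc6 (-0.52), Cdt1 (-0.30) and Mcm3 (-0.28) fell too. Those that fell numbered 16 under Brg1sh_4935, 9 under Brg1sh_3364 and 11 under Brg1sh_3232, where 12.0%, 12.1% and 10.8% of all probe sets did. Brg1sh_3232 thus lowered 11 of 22 S phase genes and 1 of 30 histone probe sets; the difference between these shares was not tested.

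Genes for the making of histone mRNA had calls in both directions. Of 15 measured genes of histone transcription and 3′ end formation, 4 fell and 2 rose (26.7% lower, beside 14.7% of all probe sets), with a median of -0.09. Most of these genes were above the median probe set. In the fit of the brighter 10820 probe sets alone, 29.5% were lower. With the hairpin as a random block 2 of the 15 were called, Cstf2 (adjusted p 0.0262) and Lsm11 (0.0377). Casp8ap2 (0.0977) and Mif4gd (0.0898) were not among them. Casp8ap2, a component of histone locus bodies, read 10.41, 10.36 and 10.30 with Rluc and 9.98 to 10.29 under the knockdown, and fell by 0.24 (SE 0.04, limma adjusted p 0.00268). Cstf2 (-0.25), of the cleavage complex, and Lsm11 (-0.30), of the U7 particle, fell as well. Lsm10, of the same particle as Lsm11, rose (0.27, limma adjusted p 0.00344). Mif4gd (0.23), which links the stem-loop protein to translation, rose too. Npat (-0.12, adjusted p 0.0796) and Slbp (-0.12, adjusted p 0.126) did not pass. Npat, Slbp and Lsm10 are named here after their values were seen.

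Among 9 genes of histone mRNA decay, 2 rose and 3 fell (55.6% called, beside 27.4% of all probe sets), with a median of -0.05. All 9 were above the median probe set, and in the fit of the brighter 10820 probe sets alone 53.6% were called. With the hairpin as a random block 3 of the 9 were called, without Eri1 (adjusted p 0.196). Tut7, which adds uridines to the 3′ ends of histone mRNAs, rose by 0.40 (SE 0.03, limma adjusted p 5.8e-05), from 11.40 to 11.48 with Rluc to 11.76 to 11.99 under the knockdown. The decapping enzyme Dcp2 (-0.41), Lsm4 (-0.25) and the exonuclease Eri1 (-0.20), which trims the stem-loop end, fell.

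Genes listed as histone variants made outside S phase were mixed. The listing is by name, and when each gene is used, H2ax among them, was not tested. Of 9 measured, Cenpa, the H3 variant of centromeres (-0.30, limma adjusted p 0.00131), and H2ax, which is phosphorylated at DNA breaks (-0.24, adjusted p 0.00341), fell. With Brg1sh_3364 H2ax did not pass (-0.08, limma adjusted p 0.362). Macroh2a2, just below the median probe set, rose by 0.60 (adjusted p 0.00874). By hairpin it passed with Brg1sh_3364 alone (1.06, adjusted p 0.00213). It did not pass with Brg1sh_3232 (0.47, 0.0963) or Brg1sh_4935 (0.28, 0.335). The 3 called genes make 33.3%, beside 27.4% of all probe sets, and Cenpa alone passed with each hairpin as a random block. Of the others, H2az1 did not pass (-0.09, adjusted p 0.177). The list also holds the member H1f10. Histone chaperones and acetylation factors had a median of -0.16 over 20 measured. Of all probe sets 14.7% were lower and 12.7% higher, and of the brighter 10820 fitted alone 29.5% were lower. With the hairpin as a random block 6 of the 20 fell, and in the main fit 11 fell (55.0%) and 0 rose. They included Asf1a, which hands H3 and H4 to assembly factors (-0.44, adjusted p 0.000768), the acetyltransferase Hat1 (-0.32), the H3 and H4 chaperone Nasp (-0.38) and Mms22l (-0.25), which acts at replication forks. Asf1a read 10.87, 10.87 and 11.07 with Rluc and 10.22 to 10.70 under the knockdown, without overlap.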

How the data were processed

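RNA of 9 arrays was measured on an Affymetrix whole-transcript platform. The authors deposited 1 log2 value a probe set and array. The submitters' processing notes name RMA, which corrects background and equalises arrays by quantiles. The version and genome build were not stated in those notes or the headers. No column was unused. Names came from the annotation of the platform (21640 with 1 symbol, 1321 with several, 11799 with none), and 21553 were matched by Entrez identifier to RefSeq (GRCm38.p6), which altered 0 symbols. In R 4.3.3, limma 3.58.1 fitted 1 mean a group over the 9 arrays (eBayes, 5 residual and 3.65 prior degrees of freedom) on the 21640 probe sets, without a filter. Tests were two-sided with Benjamini-Hochberg adjusted p below 0.05. Intervals are 95%; SE is that of the fit, and SD that over arrays.

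The members and the 6 gene lists (86 entries, 80 measured) were chosen with earlier results of these data known. List genes used the probe set with the highest mean. Named were Smarca4, the members with the largest called falls (8 at most) and rises (6 at most), the 2 brightest of each class, the 4 with the smallest F test p, the polyadenylated list, and up to 4 genes of each other list by p; other members are given to account for the classes.

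On simulated data, 89 of 100 probe sets changed by 0.5 were recovered over the hairpins, and 74 to 81 with a single hairpin, with 4 to 15 false calls of 21640. The simulation drew independent noise for each array and gave few probe sets a change, the same with every hairpin. It does not cover arrays that shift together, hairpins that differ, or changes smaller than 0.5. The number of arrays limits precision. Deviations of same-numbered arrays correlated at -0.07 to 0.24 over all probe sets and -0.52 to 0.56 over the members, with both signs among the pairs of groups, so no pairing was used. Alternatives covered normalization, filters, variance estimates, blocks, thresholds and left-out arrays; 3 were added after the data were seen.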

Additional observations from a re-analysis of the deposited data

Results flagged for a closer look

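H3c15, an H3 gene of the smaller cluster on chromosome 3, differed between the hairpins. The moderated F test over the 3 hairpin groups gave an adjusted p of 0.0297, and Brg1sh_3364 exceeded Brg1sh_3232 by 1.20 on the log2 scale. The 2 Brg1sh_3232 arrays read 7.52 and 7.23, and the 4 arrays of the other hairpins read 8.23 to 8.83. Its controls spread from 8.06 to 8.77.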

How the results depend on the processing

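No member call changed sign under any alternative. The median change with Brg1sh_3232 did, from -0.09 to 0.04 over left-out arrays. The count over the hairpins (6) was 1 with the hairpin as a random block (background 12.1%). It was 3 at an adjusted p below 0.01, where 1942 of 21640 probe sets were higher and 2108 lower. For the shared probe sets in place of the members it was 1 (background 17.9%). The random block also lowered the lists: 3′ end genes to 2, decay to 3, variants to 1, chaperones to 6 and S phase to 10. Of the members called, H2bc18 alone passed under it. For Brg1sh_3232 (2), the count was 4 without dim probe sets (background 42.3%). It was also 4 with 1 probe set a gene or with trended robust eBayes (20.8% each). It was 1 over every deposited row (10.5%) or in a fit of only the groups compared (11.4%). At 0.01 it was 1, where 1135 of 21640 probe sets were higher and 1227 lower. For Brg1sh_4935 (11) the count was 5 over every row (background 12.7%) and 4 in the fit of its own groups (background 17.2%). At 0.01 it was 4 of 30, where 1350 of 21640 probe sets were higher and 1500 lower. The call between Brg1sh_3364 and Brg1sh_3232 became 0 over every row (background 4.09%). Fitting every row tests more features, and fits of fewer groups have fewer arrays; other causes were not tested. With a replicate block, 9 of 30 members and 3 of 9 decay genes were called over the hairpins, beside 23.0% of all probe sets. The share of members called was thus above the background in that fit, and below it in the main fit. Same-numbered arrays share only a number.

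Leaving out single arrays gave 4 to 6 calls over the hairpins (background 22.9% to 26.1%) and 0 to 2 for Brg1sh_3232 (11.5% to 20.0%). It gave 2 to 5 for Brg1sh_3364 (16.3% to 24.6%) and 2 to 11 for Brg1sh_4935 (12.5% to 20.7%). The pair counts ran 0 to 3 for Brg1sh_3364 against Brg1sh_3232 (background 3.16% to 10.8%). They ran 0 to 4 for Brg1sh_4935 against Brg1sh_3232 (0.0139% to 1.80%) and 0 to 0 for Brg1sh_4935 against Brg1sh_3364 (1.97% to 8.52%). Against Rluc, the share of all probe sets called was also lower in these fits than with every array. The exception was Brg1sh_3232 without Rluc replicate 1 (20.0% beside 19.9%). Medians ran from -0.20 to -0.04 over the hairpins, -0.09 to 0.04 for Brg1sh_3232, -0.19 to -0.05 for Brg1sh_3364 and -0.22 to -0.07 for Brg1sh_4935. Centring arrays on their medians left 6 and 12 calls over the hairpins and with Brg1sh_4935 (background 29.2% and 23.9%). It lowered the share of all calls that were higher from 46.4% to 35.9% and from 43.8% to 31.1%.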
